A study of Mus musculus with 8 samples.

Results

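The MCM helicase and origin licensing genes were examined across the 4 groups of the study: Mcm2, Mcm3, Mcm4, Mcm5, Mcm6 and Mcm7, which encode the subunits of the replicative helicase, Mcm10, and the licensing factors Cdc6, Cdt1 and Orc1. They were taken by gene name from the table of counts, which held 53700 genes, and all 10 were found and were among the 13933 genes that passed the filter on low counts and were tested. The cells were LLC, a mouse Lewis lung carcinoma line, either WT or FIH-KO, in which Cas9 protein and a guide to exon 2 of Hif1an, the gene for the oxygen-dependent hydroxylase FIH, had been introduced and clones had been selected after dilution to single cells. RNA was taken after 16 hours of culture at either 21% O2, called normoxia, or 1% O2, called hypoxia, which gave WT normoxia, FIH-KO normoxia, WT hypoxia and FIH-KO hypoxia with 2 libraries each. How many clones stood behind the FIH-KO libraries, and whether the WT cells had received Cas9 or a control guide, is not given in the sources used here, so FIH loss and traits of a clone cannot be told apart.

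Before a chromosome can be copied, each origin has to be licensed. The origin recognition complex, of which ORC1 is the largest subunit, binds the DNA, CDC6 joins it, and CDT1 brings in rings of MCM2 to MCM7, which are loaded as inactive double hexamers during G1 phase. In S phase kinases, CDC45 and the GINS complex turn each ring into a moving helicase, with MCM10 acting at this step, and licensing is then shut off until the next cycle, in part by geminin and by destruction of CDT1. Many of these genes are known targets of the E2F factors and are expressed most strongly in cycling cells, so in RNA from bulk cultures fewer cycling cells and less RNA per cell cannot be told apart.

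The libraries held from 14519731 to 18177016 reads assigned to genes. Hif1an itself was lower in FIH-KO cells, with a log2 fold change (FIH-KO over WT) of -1.20 in normoxia and -0.85 in hypoxia (adjusted p = 3.1e-05 and 0.00031, edgeR). As a check of the label, the epithelial markers Epcam, Sftpc and Nkx2-1 were at 0 reads in every library and Cdh1 reached 1 read, whereas Krt8 and Krt18 held at least 1521 and 1693 reads and the mesenchymal marker Vim at least 46720. Of the 5 immune markers, Cd3e and Adgre1 were at 0 throughout, Ptprc reached 3 reads and 1 gene, Csf1r, could be tested. The summed level of this list ran from 0 to 0.118 CPM (counts-per-million of the library) in the 4 normoxia libraries and from 0.715 to 3.03 in the 4 hypoxia libraries. The 3 endothelial markers summed to between 0.114 and 0.257 CPM in normoxia, to between 1.79 and 2.20 in WT hypoxia and to between 0.325 and 0.491 in FIH-KO hypoxia, and the 3 fibroblast markers to at most 28.7 in any library. In the hypoxia libraries most immune marker reads were from Csf1r, which reached 53 reads. Most endothelial marker reads there were from Cdh5, which reached 35, while Pecam1 reached 8 and Tek 1. The part of these low levels in the hypoxia results was not tested.

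The promoters of 7 of the 10 genes carried letters of an E2F site. These stretches are shown because many genes of the family are known E2F targets. The window ran from 250 bases before the annotated start to 50 bases after it, 300 bases in all, read from GRCm39 with GENCODE M39 starts, and both strands were searched for TTTCCCGC, TTTGGCGC, TTTCGCGC and TTTGCCGC. The same letters occurred in 2.82% of 21770 protein-coding promoters and in 3.97% of the 11622 that belong to tested genes. Each stretch is written 5′ to 3′ on the strand of its gene, with the matched letters in capitals; in Mcm5 and Mcm6 a match on one strand overlaps a match on the other, and both lie within the capitals.
Mcm3 (chr1:20890500-20890527, minus strand): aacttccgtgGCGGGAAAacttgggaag
Mcm3 (chr1:20890487-20890508, minus strand): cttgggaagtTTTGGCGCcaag
Mcm4 (chr16:15455471-15455498, minus strand): cggccccgggTTTCCCGCcaaaacgcaa
Mcm4 (chr16:15455325-15455352, minus strand): gctacacgccTTTGCCGCtgtgattggc
Mcm5 (chr8:75835976-75836003, plus strand): ccaagaacTTTCGCGCCAAAacgtccag
Mcm6 (chr1:128287533-128287560, minus strand): cgtatgctTTTGGCGCGAAAagtgcgtg
Mcm6 (chr1:128287472-128287499, minus strand): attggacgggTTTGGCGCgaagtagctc
Cdc6 (chr11:98798657-98798676, plus strand): gtagagcggcTTTGGCGCga
Cdt1 (chr8:123294776-123294797, plus strand): gaactaccttTTTGGCGCcatg
Orc1 (chr4:108436614-108436641, plus strand): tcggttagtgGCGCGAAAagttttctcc
The matches in Mcm4 and Mcm5 and the first in Mcm6 lay upstream of any annotated exon, and the others overlapped an annotated exon of their own gene. The windows of Mcm2, Mcm7 and Mcm10 held none of these letters. CCAAT, the box bound by NF-Y, was found in 8 of the 10 windows against 39.9% of all promoters, and ACGTG or GCGTG, the core of the element bound by HIF, in 7 of 10 against 48.0% of all promoters and 62.5% of those of tested genes. These letters are a description of the windows and not evidence that a factor was bound.

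In WT normoxia the hexamer genes were the most abundant of the family. Divided by the length of all annotated exons of the gene, Mcm6 was at 95.2 ± 3.48 TMM-scaled CPM per kilobase (SD, n = 2) and Mcm3 at 91.7 ± 5.96, and the libraries of these 2 genes overlapped. Mcm4, Mcm7, Mcm5 and Mcm2 followed with 73.5, 62.6, 58.9 and 40.4 CPM per kilobase, each separated from the next by its libraries. The licensing factors were lower, with Cdt1 at 34.7 and Cdc6 at 13.7 CPM per kilobase, and Mcm10 at 9.93 and Orc1 at 3.76 came last. In both FIH-KO groups Mcm4 stood first on this scale, at 76.2 CPM per kilobase in normoxia and 48.6 in hypoxia, with libraries that overlapped those of Mcm6. The order within the hexamer depended on the length used: by the longest transcript, Mcm7 came first in WT normoxia at 118.6 and Mcm6 second at 117, with overlapping libraries.

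**Figure D1:**
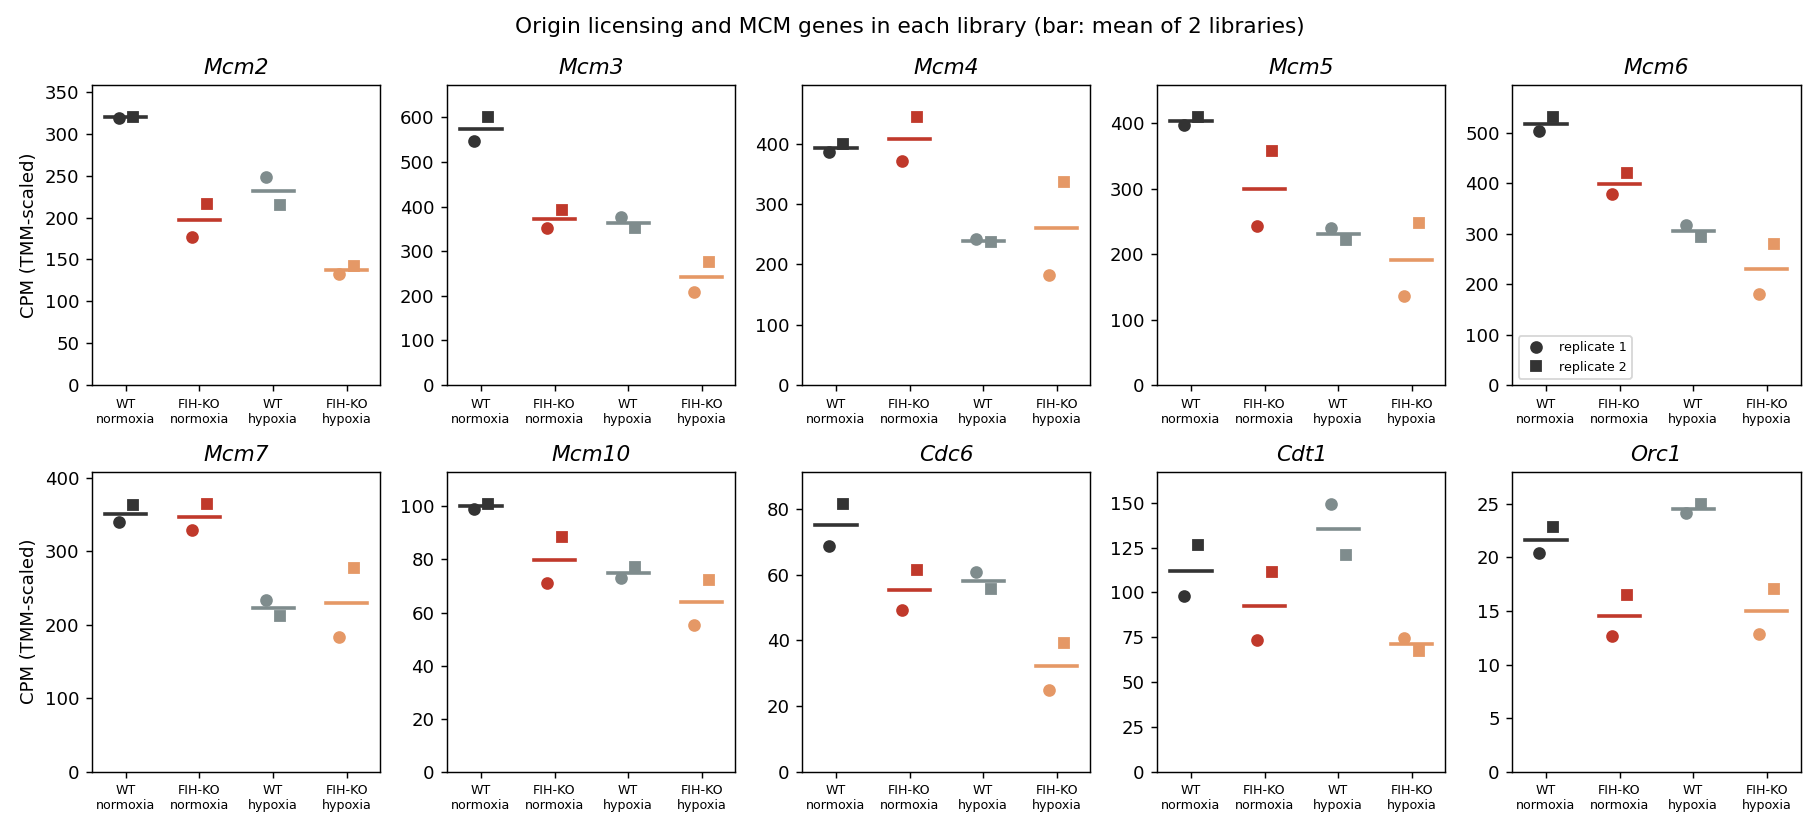
Levels of the 10 genes in each library, in TMM-scaled CPM on axes that start at 0. Circles are replicate 1, squares replicate 2 and bars the mean of 2 libraries; Mcm2 went from 319 and 320.1 in WT normoxia to 133 and 142 in FIH-KO hypoxia, and the replicates of FIH-KO hypoxia lay far apart for Mcm4 and Mcm5.

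The first question was whether loss of FIH changed these genes. In FIH-KO cells Mcm2, Mcm3 and Orc1 were lower at both oxygen levels, with differences of -38.5% and -40.6% for Mcm2, -35.2% and -33.3% for Mcm3, and -32.6% and -39.1% for Orc1 in normoxia and hypoxia. Cdc6 and Cdt1 passed the test in hypoxia, with -45.0% and -47.5%. Mcm4 and Mcm7 did not follow, with log2 fold changes between -0.02 and 0.12. None of the 10 genes was called higher in any of these comparisons, while 15.2%, 14.1% and 22% of tested genes were in normoxia, hypoxia and over both. In normoxia 3 of the 10 genes were called lower at an adjusted p under 0.05 by edgeR, where 13% of all tested genes were, and in hypoxia 5 of 10, where 13.9% were. When the genotype effect was averaged over both oxygen levels, 7 of 10 were called lower, against 21.2% of tested genes. The median log2 fold change of the 10 genes was -0.40 in normoxia and -0.50 in hypoxia, and that of all tested genes was -0.00 and -0.03. Leaving out replicate 2 of WT normoxia, or replicate 1 of FIH-KO normoxia, reduced the count in normoxia to 1. Leaving out replicate 1 of WT normoxia, or replicate 2 of WT hypoxia, gave 2, leaving out replicate 2 of FIH-KO normoxia gave 5, and leaving out replicate 1 or 2 of FIH-KO hypoxia gave 7 or 6. In hypoxia it was 1 without replicate 1 of WT hypoxia.

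Among the hexamer genes, Mcm2 showed the largest genotype difference at both oxygen levels; MCM2 also carries a histone-binding tail and is a main substrate of the CDC7 kinase. Its 2 libraries held 319 and 320.1 CPM in WT normoxia, 177 and 216 in FIH-KO normoxia, 249 and 215 in WT hypoxia, and 133 and 142 in FIH-KO hypoxia. The libraries of the 2 genotypes did not overlap at either oxygen level. FIH-KO over WT came to -0.70 on the log2 scale (standard error 0.12, adjusted p = 0.0015, edgeR) in normoxia and -0.75 (0.12, adjusted p = 0.0011) in hypoxia.

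Mcm3, whose product sits beside MCM5 in the ring, had the most reads of the family on average over the 8 libraries. It stood at 548 and 601 CPM in WT normoxia, 352 and 393 in FIH-KO normoxia, 377 and 351 in WT hypoxia, and 209 and 277 in FIH-KO hypoxia. Here too the genotypes did not overlap within an oxygen level. The log2 fold change was -0.63 (standard error 0.14, adjusted p = 0.0055, edgeR) in normoxia and -0.58 (0.14, adjusted p = 0.0084) in hypoxia. The hypoxia call was lost without replicate 1 of WT hypoxia (-0.50, adjusted p = 0.088) or replicate 1 of FIH-KO hypoxia (-0.36, adjusted p = 0.062), and the normoxia call without replicate 2 of WT normoxia or replicate 1 of FIH-KO normoxia (adjusted p = 0.052 and 0.053).

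Mcm6, a subunit of the MCM4, MCM6 and MCM7 core with helicase activity, had a smaller genotype effect. Its levels were 504 and 531 CPM in WT normoxia, 377 and 420.4 in FIH-KO normoxia, 316 and 294 in WT hypoxia, and 181 and 279 in FIH-KO hypoxia. The genotypes did not overlap at either oxygen level, yet Mcm6 missed the threshold in each alone (-0.37, adjusted p = 0.11 in normoxia and -0.41, adjusted p = 0.088 in hypoxia, edgeR). The hypoxia value was -0.09 when replicate 1 of FIH-KO hypoxia was left out, and -0.75 (adjusted p = 0.0016) when replicate 2 was. Averaged over both, the effect was -0.39 on the log2 scale (standard error 0.12, adjusted p = 0.018), a call that was lost without replicate 2 of WT normoxia, replicate 1 of WT hypoxia or replicate 1 of FIH-KO normoxia (adjusted p = 0.067, 0.070 and 0.072), and it was -0.24 when replicate 1 of FIH-KO hypoxia was left out.

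Mcm5 was at 396 and 409 CPM in WT normoxia, 243 and 357 in FIH-KO normoxia, 239 and 222 in WT hypoxia, and 135 and 247 in FIH-KO hypoxia. Its FIH-KO libraries differed from each other more than the genotypes did, and in hypoxia they fell on both sides of the WT libraries. The log2 fold change was -0.42 (standard error 0.23) in normoxia, -0.27 (0.23) in hypoxia and -0.35 (0.16) over both (adjusted p = 0.19, 0.42 and 0.10, edgeR). In hypoxia the estimate became 0.14 when replicate 1 of FIH-KO hypoxia was left out, and -0.76 (adjusted p = 0.012) without replicate 2.

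Mcm4 and Mcm7 encode the remaining subunits of the ring. Mcm4 was at 386 and 399.7 CPM in WT normoxia, 371 and 444 in FIH-KO normoxia, 241 and 237 in WT hypoxia, and 183 and 337 in FIH-KO hypoxia. Mcm7 was at 339 and 363 CPM in WT normoxia, 328 and 364 in FIH-KO normoxia, 234 and 211 in WT hypoxia, and 183 and 277 in FIH-KO hypoxia. For both genes the FIH-KO libraries spanned the WT libraries at each oxygen level. Averaged over both oxygen levels, the log2 fold change was 0.09 (standard error 0.15, adjusted p = 0.67, edgeR) for Mcm4 and 0.01 (0.11, adjusted p = 0.94) for Mcm7. In hypoxia the value for Mcm4 turned on single libraries, being 0.54 (adjusted p = 0.0091) when replicate 1 of FIH-KO hypoxia was left out, and -0.38 (adjusted p = 0.059) without replicate 2.

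Among the licensing factors, Orc1 had the lowest counts, between 206 and 430 reads per library. It stood at 20.4 and 22.8 CPM in WT normoxia, 12.7 and 16.5 in FIH-KO normoxia, 24.1 and 25.0 in WT hypoxia, and 12.9 and 17.1 in FIH-KO hypoxia. Orc1 was the 1 gene of the 10 for which all 4 FIH-KO libraries lay below all 4 WT libraries, a pattern that 12.6% of tested genes shared in this direction. The log2 fold change was -0.57 (standard error 0.18, adjusted p = 0.036, edgeR) in normoxia and -0.71 (0.18, adjusted p = 0.012) in hypoxia. Leaving out 1 library could end either call: in normoxia replicate 1 or 2 of WT normoxia, replicate 2 of WT hypoxia or replicate 1 of FIH-KO normoxia (adjusted p between 0.053 and 0.23), and in hypoxia either replicate of WT hypoxia or replicate 1 of FIH-KO hypoxia (adjusted p = 0.066, 0.067 and 0.094).

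Cdc6, the ATPase that joins ORC and helps to load the ring, was at 68.6 and 81.6 CPM in WT normoxia, 49.2 and 61.3 in FIH-KO normoxia, 60.8 and 55.6 in WT hypoxia, and 24.9 and 39.2 in FIH-KO hypoxia. The lowest levels were thus those of FIH-KO cells in hypoxia. The log2 fold change of genotype was -0.44 (standard error 0.19, adjusted p = 0.099, edgeR) in normoxia and -0.86 (0.19, adjusted p = 0.0060) in hypoxia. Cdt1, which delivers the MCM ring to the origin, was at 98.1 and 126 CPM in WT normoxia, 73.3 and 112 in FIH-KO normoxia, 149 and 121 in WT hypoxia, and 74.7 and 67.3 in FIH-KO hypoxia. Its genotypes overlapped in normoxia (-0.28, standard error 0.19, adjusted p = 0.29) and were apart in hypoxia (-0.93, standard error 0.19, adjusted p = 0.0034). Without replicate 1 of WT hypoxia the hypoxia calls of Cdc6 and Cdt1 were lost (-0.76 and -0.74, adjusted p = 0.061 and 0.053). The hypoxia value of Cdc6 was -0.53 (adjusted p = 0.038) when replicate 1 of FIH-KO hypoxia was left out, and -1.22 when replicate 2 was.

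Mcm10 was at 99.1 and 101 CPM in WT normoxia, 71.2 and 88.5 in FIH-KO normoxia, 72.9 and 77.0 in WT hypoxia, and 55.3 and 72.4 in FIH-KO hypoxia. The genotypes did not overlap at either oxygen level, with a narrow gap in hypoxia. Averaged over both, the log2 fold change was -0.28 (standard error 0.10, adjusted p = 0.043, edgeR), and this call was lost without any 1 of 6 libraries, the exceptions being replicate 2 of FIH-KO normoxia and replicate 2 of FIH-KO hypoxia (adjusted p between 0.084 and 0.18). In all, the libraries of 7 of the 10 genes were lower without overlap in FIH-KO cells in normoxia and of 7 in hypoxia, while 34.8% and 32.5% of tested genes were.

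**Figure D2:**
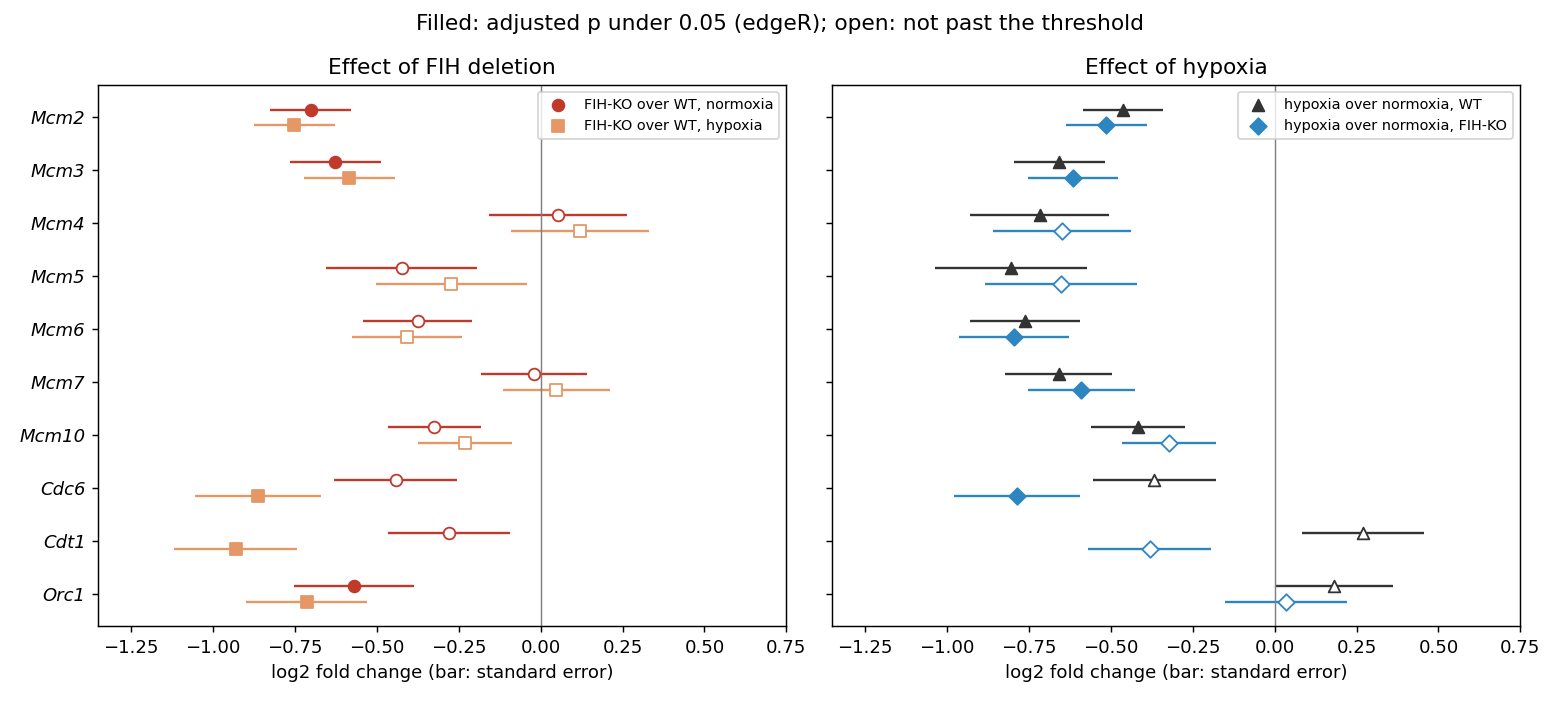
Log2 fold changes of the 10 genes with their standard errors, for FIH-KO over WT (left) and hypoxia over normoxia (right), from 1 edgeR fit of 8 libraries. Filled symbols had an adjusted p under 0.05 and open symbols did not; the genotype effect of Mcm4 and Mcm7 sat between -0.02 and 0.12 and their hypoxia effect between -0.72 and -0.59, while Orc1 had genotype effects of -0.57 and -0.71 and hypoxia effects of 0.18 and 0.04.

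The second question was what hypoxia did in each genotype. In WT cells all 6 hexamer genes and Mcm10 were called lower. Cdc6 did not pass the test, although its hypoxia libraries lay below both normoxia libraries, and neither did Cdt1 and Orc1, which had values above 0. In total 7 of the 10 genes were called lower, where 15.5% of tested genes were, with none called higher against 16.9%, and the median log2 fold change of the 10 was -0.56. The 6 hexamer genes fell by between 27.4% and 42.7%. The log2 fold change of hypoxia over normoxia was -0.80 (standard error 0.23, adjusted p = 0.019, edgeR) for Mcm5, -0.76 (0.17, adjusted p = 0.0048) for Mcm6, -0.72 (0.21, adjusted p = 0.022) for Mcm4 and -0.66 for Mcm3 and Mcm7 (adjusted p = 0.0038 and 0.0092). Mcm2 and Mcm10 fell by less, with -0.46 (standard error 0.12, adjusted p = 0.013) and -0.42 (0.14, adjusted p = 0.042).

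The 3 licensing factors did not pass the test in WT cells. Cdc6 came to -0.37 on the log2 scale (standard error 0.19, adjusted p = 0.16, edgeR), Cdt1 to 0.27 (0.19, adjusted p = 0.29) and Orc1 to 0.18 (0.18, adjusted p = 0.47). The 2 hypoxia libraries of WT cells lay above both normoxia libraries for Orc1 and below them for 8 genes, patterns shown by 35.2% and 35.6% of tested genes. The count of 7 calls was sensitive to each of the 4 WT libraries: it was 3 and 2 without replicate 1 or 2 of WT normoxia, and 4 and 2 without replicate 1 or 2 of WT hypoxia, with every estimate of the 7 genes still below 0. By DESeq2, Mcm5 missed the threshold (adjusted p = 0.070).

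In FIH-KO cells 5 of the 10 genes were called lower in hypoxia, against 8% of tested genes, and again none higher, against 8.84%. The libraries of 6 genes were lower without overlap, against 29.3%, and the median of the 10 was -0.60. Mcm6 fell most among them (-0.80, standard error 0.17, adjusted p = 0.0077, edgeR), followed by Cdc6 (-0.79, standard error 0.19, adjusted p = 0.016), Mcm3 (-0.62, adjusted p = 0.011), Mcm7 (-0.59, adjusted p = 0.028) and Mcm2 (-0.51, adjusted p = 0.015). Mcm4 and Mcm5 had estimates of the same size, -0.65 each, and larger errors (adjusted p = 0.054 and 0.075). When replicate 1 of FIH-KO hypoxia was left out, the estimates were -0.25 for Mcm4, -0.26 for Mcm5, -0.30 for Mcm7, -0.40 for Mcm3, -0.47 for Cdc6 and -0.49 for Mcm6, of which only Mcm6 passed (adjusted p = 0.029). Leaving out replicate 2 instead gave -1.16 for Mcm4, -1.15 for Mcm5 and -0.92 for Mcm7 (adjusted p = 0.00011, 0.0012 and 0.00045). Leaving out replicate 2 of FIH-KO normoxia gave -0.34 for Mcm2 (adjusted p = 0.14) and -0.32 for Mcm5. Mcm10 at -0.32, Cdt1 at -0.38 and Orc1 at 0.04 did not pass. Mcm2, Mcm3, Mcm6 and Mcm7 were thus called lower in hypoxia in both genotypes. The count of 5 was 0 without replicate 2 of FIH-KO normoxia, 1 without replicate 1 of FIH-KO hypoxia, 8 without replicate 2 of FIH-KO hypoxia, and 1 when only the 4 FIH-KO libraries were fitted.

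Whether the genotype effect differed between the oxygen levels was tested as an interaction. None of the 10 genes was called by edgeR or by DESeq2, and each tool had 1 of them at an unadjusted p under 0.05. Of the 13933 tested genes, 0% were called by edgeR and 40 genes by DESeq2. Cdt1 had the lowest value, with a log2 fold change 0.65 lower in hypoxia than in normoxia (-0.65, standard error 0.26, unadjusted p = 0.029, adjusted p = 0.67, edgeR), and Cdc6 followed with -0.42 (0.27, adjusted p = 0.81). With 1 library left out, Cdt1 ranged from -0.86 to -0.25, the latter when replicate 2 of FIH-KO normoxia was left out, and Cdc6 from -0.78 to -0.06 when replicate 2 or 1 of FIH-KO hypoxia was. For the 6 hexamer genes and Mcm10 the interaction lay between -0.05 and 0.15. The calls of Cdc6 and Cdt1 in hypoxia but not in normoxia are therefore not shown to be a difference between the oxygen levels.

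The unequal genotype effects within the hexamer were examined further inside each library, where scaling between libraries plays no part. The share of Mcm4 among the summed CPM of the 6 hexamer genes was 15.5% and 15.2% in WT normoxia, 20.1% and 20.2% in FIH-KO normoxia, 14.6% and 15.5% in WT hypoxia, and 17.9% and 21.6% in FIH-KO hypoxia. That of Mcm7 was 13.6% and 13.9%, 17.8% and 16.6%, 14.1% and 13.8%, and 17.9% and 17.8% in the same order. For both genes all 4 FIH-KO libraries lay above all 4 WT libraries at either oxygen level. The share of Mcm3 was lower, at 22.0% to 22.9% in WT and 17.7% to 20.4% in FIH-KO libraries, also without overlap, whereas that of Mcm2 overlapped between the genotypes.

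**Figure D3:**
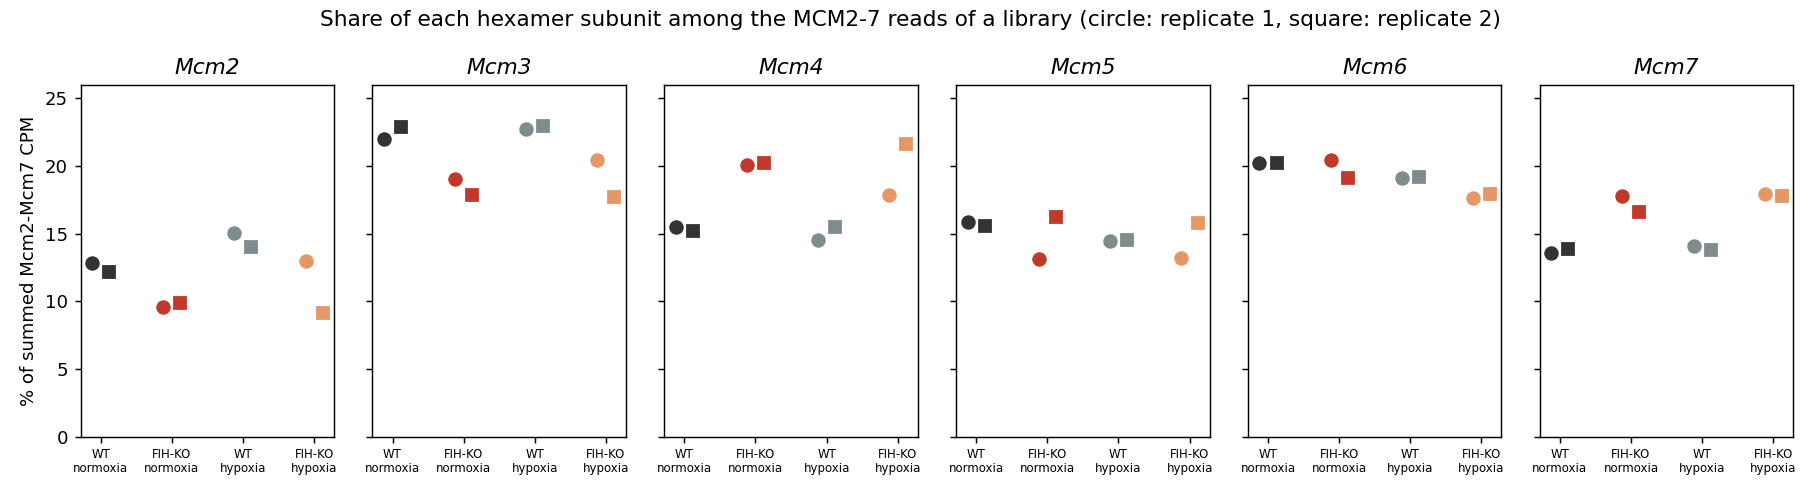
Share of each subunit gene in the summed Mcm2 to Mcm7 CPM of a library, in percent on an axis from 0 (circles replicate 1, squares replicate 2). Mcm4 and Mcm7 took more of the sum in each of the 4 FIH-KO libraries than in any WT library, and Mcm3 less.

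The 6 hexamer genes form 15 pairs, and the log2 ratio of each pair was compared between the genotypes over 4 against 4 libraries. The ratio was separated without overlap in 8 of the 15 pairs, while 26.5% of all pairs of tested genes were. These 8 were the pairs of Mcm4 or Mcm7 with Mcm2, Mcm3, Mcm5 or Mcm6, each of them with relatively more Mcm4 or Mcm7 in FIH-KO cells. The difference was largest for Mcm2 over Mcm4, whose mean log2 ratio was -0.95 in FIH-KO and -0.17 in WT libraries, a difference of -0.78, and for Mcm2 over Mcm7 it was -0.73. Each of the 8 had the smallest p that 4 against 4 libraries can give in the two-sided exact permutation test (p = 0.0286), which after Benjamini-Hochberg adjustment over 15 pairs was 0.054, so none passed at 0.05. The ratio of Mcm4 to Mcm7 differed by 0.05 between the genotypes (exact permutation p = 0.57). The pairs share genes and libraries and are not independent of each other, and they use the same counts as the tests of single genes. The permutation test exchanged all 8 libraries freely and did not keep the oxygen levels apart.

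Between hypoxia and normoxia, over 4 against 4 libraries, none of the 15 ratios was separated, against 22.2% of all pairs of tested genes. Since that comparison pools genotypes whose ratios differ, the ratios were also compared inside each genotype, 2 against 2 libraries, a comparison chosen after the data were seen that is too small for a test. In WT cells 11 of the 15 were separated between the oxygen levels, against 70.3% of all pairs of tested genes, and in FIH-KO cells 2, against 55.6%. Compared in the same way between genotypes, 11 were separated in normoxia and 10 in hypoxia, against 69.1% and 62.7%, so at this size the counts were near the background in 3 of the 4 comparisons. The largest difference with hypoxia in WT cells was 0.34 on the log2 scale, for Mcm2 over Mcm5, and between genotypes the largest was 0.75 in normoxia and 0.80 in hypoxia. The share of Mcm2 in WT cells was at most 12.8% in normoxia and at least 14.1% in hypoxia, and that of Mcm5 went from 15.9% and 15.6% to 14.4% and 14.5%. The summed level of the 6 genes was 2493 and 2624 CPM in WT normoxia, 1849 and 2195 in FIH-KO normoxia, 1656 and 1530 in WT hypoxia, and 1025 and 1559 in FIH-KO hypoxia.

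Genes next to or overlapping these were examined for Mcm4, Mcm7, Cdt1 and Orc1. Mcm4 (chr16:15440211-15455264, minus strand) shares its upstream region with Prkdc, the catalytic subunit of the DNA-dependent protein kinase, which starts 489 bases away on the other strand. Prkdc was higher in FIH-KO cells, with a log2 fold change of 0.61 (adjusted p = 0.0069, edgeR) in normoxia, 0.34 (adjusted p = 0.088) in hypoxia and 0.47 (adjusted p = 0.0021) over both. The 424 tested genes of chromosome 16 had a median log2 fold change of genotype of 0.23 in normoxia and 0.18 in hypoxia, and the 10 tested genes nearest to Mcm4 of 0.21 and 0.14. The 890 tested genes of chromosome 5, where Mcm7 lies, had -0.10 and -0.12, and the 10 nearest to Mcm7 0.17 and 0.16. Some members that were lower in FIH-KO cells also had a regional median above 0, though not always on both measures. The 10 tested genes nearest to Mcm3 had 0.37 in normoxia and 0.24 in hypoxia, but the 837 of chromosome 1 had -0.06 and -0.11. The 1112 tested genes of chromosome 2, where Mcm10 lies, had 0.23 and 0.21, but the 10 nearest to Mcm10 had 0.04 and 0.04. The 10 nearest to Mcm2, in contrast, had -0.04 and -0.17, and the 680 of chromosome 6 had -0.12 and -0.13. The part of these regional values in the levels of Mcm4, Mcm7 and the other members was not tested. The 250 bases upstream of Mcm4, which lie between the 2 starts and overlap no annotated exon (chr16:15455265-15455514, read on the strand of Mcm4), are given because they hold both E2F matches, in capitals.
Mcm4 upstream: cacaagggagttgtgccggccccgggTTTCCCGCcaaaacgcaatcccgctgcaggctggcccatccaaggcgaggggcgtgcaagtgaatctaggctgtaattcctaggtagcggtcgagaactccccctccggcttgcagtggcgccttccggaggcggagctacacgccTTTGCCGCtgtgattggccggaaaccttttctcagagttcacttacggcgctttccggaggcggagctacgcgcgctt
Mcm7 (chr5:138162844-138170684, minus strand) overlaps Ap4m1 and Cops6 on the other strand, with 348 and 343 bases of its exons in common with theirs, and reads there cannot be assigned to a gene if the counting did not use strand, which is not given in the sources used here. Ap4m1, a subunit of an adaptor complex that starts 447 bases from Mcm7, had a log2 fold change of genotype of 0.24 over both oxygen levels (adjusted p = 0.19, edgeR). Orc1 (chr4:108436540-108473245, plus strand) starts 55 bases from the splicing factor gene Prpf38a, which was lower in FIH-KO cells in normoxia (-0.43, adjusted p = 0.020) and had -0.03 in hypoxia (adjusted p = 0.86), and it shares 360 exonic bases with the antisense RNA Gm12743. The neighbour of Cdt1, Gm64467, was not analysed here.

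The 10 genes varied together to different degrees over the 8 libraries. Pearson's r between the log2 CPM of 2 members had a median of 0.78 over the 45 pairs and ran from 0.0027 to 0.986, over libraries that share groups and depth. Mcm4 and Mcm7 were the most alike (0.99), Mcm5 and Mcm10 followed with 0.98, and Cdt1 and Orc1 (0.82) were each more like the other than like Mcm4, for which r was 0.01 with Cdt1 and 0.0027 with Orc1. Among the 10566 other genes that averaged 50 counts or more, those most like the mean profile of the family were Myof, a membrane repair protein (r = 0.990), Hnrnpl, a splicing regulator (0.985), Ndufaf6, an assembly factor of mitochondrial complex I (0.984), Dnmt1, the maintenance DNA methyltransferase (0.980), and Pola1, the catalytic subunit of the polymerase alpha-primase complex (0.979). Dnmt1 stood at 552 and 581 CPM in WT normoxia, 382 and 412 in FIH-KO normoxia, 406 and 390.1 in WT hypoxia, and 243 and 342 in FIH-KO hypoxia.

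**Figure D4:**
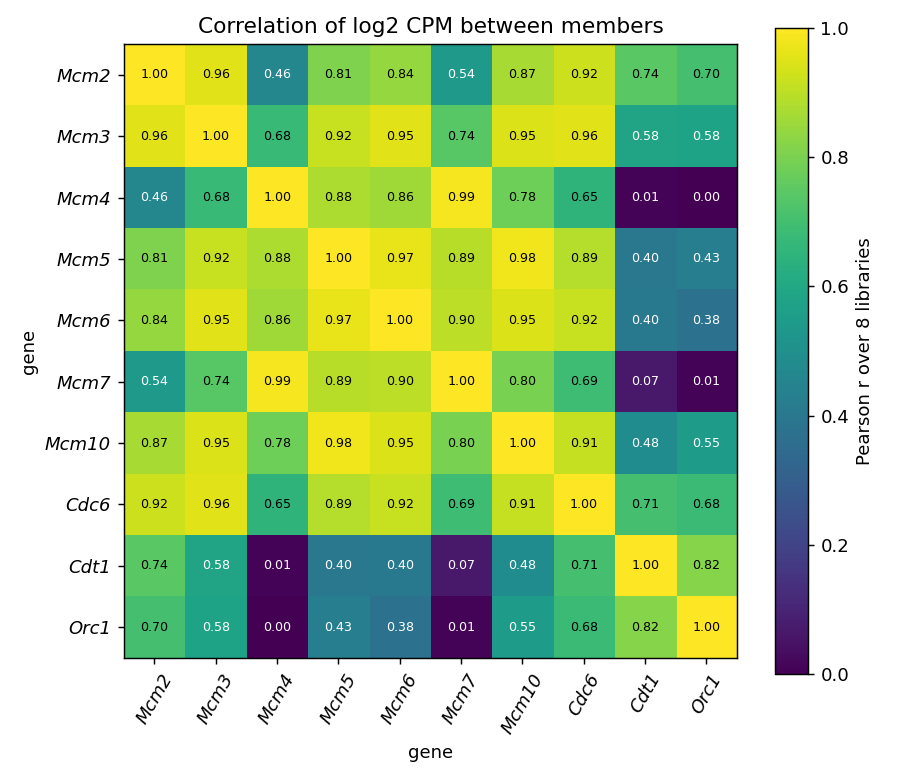
Pearson's r between the log2 CPM of each pair of the 10 genes over 8 libraries, as a colour and a printed value. Mcm4 and Mcm7 were at 0.99 with each other and near 0 with Cdt1 and Orc1, while Mcm3, Mcm5, Mcm6, Mcm10 and Cdc6 were at 0.89 or above among themselves.

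The 2 libraries of FIH-KO hypoxia differed from each other in these genes. Replicate 2 was higher than replicate 1 in 9 of the 10, with a median difference of 0.50 on the log2 scale, up to 0.88 for Mcm4 and 0.86 for Mcm5, while Mcm2 differed by 0.10 and Cdt1 was the exception at -0.15. Over all tested genes the median difference was -0.01. All 12 G2 and M phase genes were also higher in replicate 2 (median 0.56), as were 22 of the 23 polymerase, clamp and fork genes (0.41) and 13 of the 14 helicase activation genes (0.44). In the same pair of libraries the 3 tested fibroblast markers were higher in replicate 2 (median 0.82). Col1a1 had 9 reads in replicate 1 and 18 in replicate 2, Dcn 19 and 38, and Pdgfra 111 and 208. The 3 tested epithelial markers were lower in replicate 2 (median -0.54). In FIH-KO normoxia replicate 2 was higher in all 10 members, with a median of 0.30, and in WT normoxia in all 10 by a median of 0.09. In WT hypoxia it was higher in 2 of the 10, with a median of -0.11, while the fibroblast markers were higher by a median of 0.65 and the epithelial markers lower, at -0.43. Col1a1 had 3 and 8 reads in WT hypoxia and Dcn 9 and 16. The part of this spread between replicates in the results was not tested beyond leaving out each library.

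Other genes of origin firing and replication were taken as lists, beside which the median log2 fold change of all tested genes was -0.02 for genotype over both oxygen levels and -0.00 and -0.03 for hypoxia in WT and FIH-KO cells. Of the 15 partners and regulators of licensing, 9 were called lower and none higher in FIH-KO cells over both oxygen levels, against 21.2% and 22% of tested genes, with a median log2 fold change of -0.26. With 1 library left out the count ranged from 6 to 8. Dtl, the substrate receptor that marks CDT1 for destruction in S phase, was lower by -0.63 on the log2 scale (adjusted p = 0.00023, edgeR), and Orc2, a core subunit of ORC, by -0.61 (adjusted p = 0.00013). In hypoxia 4 were called lower and 2 higher in WT cells, against 15.5% and 16.9% of tested genes, and 2 lower and 2 higher in FIH-KO cells, against 8% and 8.84%. The 6 calls in WT cells became 3 when replicate 1 of WT hypoxia was left out and 2 with any other WT library left out. The 4 calls in FIH-KO cells became 1 when replicate 1 of FIH-KO hypoxia was left out, and 2 or 0 when replicate 1 or 2 of FIH-KO normoxia was. Skp2, an F-box protein that also targets CDT1, and Lrwd1, which binds ORC, fell in WT cells (-0.72 and -0.70, adjusted p = 0.0036 and 0.0018), and Lrwd1 and Dtl in FIH-KO cells (-0.60 and -0.53, adjusted p = 0.0090 and 0.020).

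Of the 14 genes of helicase activation, 10 were called lower in FIH-KO cells over both oxygen levels and none higher (9 or 10 with any 1 library left out), with a median of -0.44. Of all tested genes, 21.2% were called lower and 22% higher in that comparison. Gins3, a GINS subunit, had -0.70 (adjusted p = 0.0035, edgeR) and Wdhd1, which couples the helicase to polymerase alpha, -0.69 (adjusted p = 0.00031). Gins2 and Gins1 did not pass the test for genotype (-0.02 and -0.09, adjusted p = 0.92 and 0.57) but fell in hypoxia in WT cells, with log2 fold changes of -1.32 and -0.67 (adjusted p = 0.00032 and 0.0098). In FIH-KO cells hypoxia lowered Gins2 by 0.99 and Wdhd1 by 0.71 (adjusted p = 0.0038 and 0.0096). In this list 2 genes were called lower and 3 higher with hypoxia in WT cells, against 15.5% and 16.9% of tested genes. In FIH-KO cells 3 were called lower and 1 higher, against 8% and 8.84%. The count of 5 in WT cells is near the background given above, and it was 2 or 3 with any 1 WT library left out and 9 or 8 when replicate 1 or 2 of FIH-KO hypoxia was left out. The count of 4 was 2 when replicate 1 of FIH-KO hypoxia or of FIH-KO normoxia was left out and 7 when replicate 2 of FIH-KO hypoxia was.

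The 23 genes of the polymerases, the clamp and the fork were tested in the same way. With genotype over both oxygen levels, 21.2% of all tested genes were called lower. In hypoxia 14 of the 23 were called lower in WT cells, against 15.5% of tested genes, and 13 in FIH-KO cells, against 8%. None was called higher, against 16.9% and 8.84%, and all 23 estimates were below 0 in both, with medians of -0.51 and -0.50. Single libraries moved these counts: the 14 became 9 or 8 when replicate 1 or 2 of WT hypoxia was left out and 7 when replicate 2 of WT normoxia was. The 13 became 3 when replicate 1 of FIH-KO hypoxia was left out, 1 when replicate 2 of FIH-KO normoxia was, and 7 with replicate 1 of FIH-KO normoxia or any WT library left out. Each count also rose with some other library left out, and so did the genotype count given below. Lig1, the ligase that joins Okazaki fragments, fell by 1.03 in WT and by 0.79 in FIH-KO cells (adjusted p = 0.0015 and 0.013, edgeR). Clspn, a mediator of the replication checkpoint, fell by 0.88 in WT cells (adjusted p = 0.0036), and Rpa1, the large subunit of the single-strand binding protein, by 0.72 in FIH-KO cells (adjusted p = 0.0035). With genotype, 13 were called lower over both oxygen levels (8 when replicate 1 of FIH-KO normoxia was left out), among them the flap endonuclease gene Fen1 (-0.65, adjusted p = 0.00075) and the fork protection gene Tipin (-0.59, adjusted p = 0.00059), while Lig1 and Rpa1 were at -0.04 and -0.01 (adjusted p = 0.82 and 0.92).

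Among the 13 E2F and RB family genes, 7 were called lower and 2 higher in FIH-KO cells over both oxygen levels, and the 9 calls ranged from 6 to 10 with 1 library left out. Over both oxygen levels 21.2% of all tested genes were called lower and 22% higher. E2f5 and E2f4, both of which act mainly as repressors with RB family proteins, had the largest changes among the 9, -1.04 and -0.79 (adjusted p = 8.8e-05 and 3.9e-05, edgeR). E2f1 went the other way, at 49.4 and 57.3 CPM in WT normoxia and 65.9 and 83.3 in FIH-KO normoxia. Its hypoxia levels were 65.1 and 52.4 CPM in WT and 74.3 and 81.9 in FIH-KO cells. In hypoxia 3 were called lower in each genotype and none higher, where 15.5% of tested genes were lower in WT and 8% in FIH-KO cells. In WT cells the count was 1 when replicate 1 of WT hypoxia or replicate 2 of WT normoxia was left out, and 6 or 5 when replicate 1 or 2 of FIH-KO hypoxia was. In FIH-KO cells it was 0 when replicate 1 of FIH-KO normoxia was left out, 1 when replicate 2 was, and also 1 when replicate 1 of FIH-KO hypoxia was. The atypical repressors E2f8 and E2f7 fell by 1.26 and 0.75 in WT cells (adjusted p = 0.00095 and 0.017), and Tfdp2, a dimer partner of E2F, and E2f8 by 0.94 and 0.78 in FIH-KO cells (adjusted p = 0.0055 and 0.025).

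The 12 G2 and M phase genes were split. With genotype, 1 was called lower and 1 higher over both oxygen levels, against 21.2% and 22% of tested genes. They were the kinesin Kif11 (-0.52, adjusted p = 0.0061, edgeR) and the spindle protein Nusap1 (0.51, adjusted p = 0.012). Hypoxia lowered 6 and raised 1 in WT cells, against 15.5% and 16.9% of tested genes. Nusap1 was at -0.64 and Cdk1, the mitotic kinase, at -0.62 (adjusted p = 0.032 and 0.0099, edgeR). In FIH-KO cells hypoxia lowered none and raised 2, against 8% and 8.84%. These 2 were Cenpf and Bub1 (0.73 and 0.63, adjusted p = 0.020 and 0.0054, edgeR). Each of these counts turned on single libraries. The 2 genotype calls, fewer than the background share, became 8 when replicate 2 of FIH-KO hypoxia was left out, and 1 when replicate 1 of FIH-KO normoxia or of WT hypoxia was. The 7 hypoxia calls in WT cells became 3, 0, 2 and 2 when replicate 1 or 2 of WT hypoxia or replicate 1 or 2 of WT normoxia was left out, and 11 when replicate 1 of FIH-KO hypoxia was. The 2 in FIH-KO cells became 6 when replicate 2 of FIH-KO hypoxia was left out and 1 when either library of FIH-KO normoxia was. The interaction was above 0 for all 12 with a median of 0.37, against -0.02 over all tested genes, and none was called by edgeR. In FIH-KO hypoxia replicate 2 was higher than replicate 1 in all 12, by a median of 0.56 on the log2 scale. The part of this gap in the interaction was not tested. Of the MCM relatives outside the hexamer, Mcm8, which acts in recombination, rose in WT cells in hypoxia (0.53, adjusted p = 0.012, edgeR). Mcm9, the other relative tested, had a value below 0 there and was not called, and the median of the 2 was 0.04. Mcmdc2 had at most 1 read in a library and was not tested.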

How the data were processed

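Stranded mRNA libraries were read paired-end by the authors, who used STAR and GRCm39 for alignment and HTSeq for counting. The authors deposited raw counts for 53700 genes, not normalized. The annotation release and the strand setting of the counting are not given in the sources used here. The submitters' processing notes also name GRCm38.

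The main test was that of edgeR 4.0.16 under R 4.3.3 (genes kept by filterByExpr with the groups, TMM, 1 quasi-likelihood fit of 8 libraries with a mean for each of 4 groups, Benjamini-Hochberg adjustment over 13933 tested genes, threshold 0.05). CPM are TMM-scaled, except in the sums of the marker lists, which used the total counts of each library without TMM. Correlations used log2(CPM + 0.5). So did the ratios of all pairs of tested genes and the hexamer ratios over 2 against 2 libraries. The hexamer ratios over 4 against 4 libraries used CPM with no offset. DESeq2 1.42.0 (Wald test), RLE and upper-quartile scaling, other filters, fits of only 4 libraries, the replicate number as a term and each library left out were alternatives. Nothing in the labels says that the 2 libraries of a group came from separate cultures, so p-values measure the spread between these libraries.

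Positions and promoter windows came from GRCm39 with GENCODE M39, which held 52610 of the identifiers, read with pysam 0.24.0 in Python 3.11.15 (pandas 2.3.3, scipy 1.17.1, matplotlib 3.10.9). The 10 genes and the lists were chosen with earlier results of these data known. Named beside them were the 2 genes of each list with the largest change among those past the threshold (genotype over both oxygen levels, hypoxia in each genotype), the 5 genes most like the family, Hif1an, and genes starting within 1000 bases on the opposite strand. Same-numbered libraries were not treated as pairs: over the 6 pairs of groups, their deviations correlated between -0.01 and 0.19.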

Additional observations from a re-analysis of the deposited data

How the results depend on the processing

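Of 400 values recomputed under other normalizations, filters, tests and fits, 379 kept their direction and side of the threshold, 16 passed it newly, 5 lost it and none reversed. In normoxia the genotype calls among the 10 genes were 6 rather than 3 with no filter beyond 1 read, and 5 when only the 4 libraries of the comparison were fitted, which also reduced the calls of hypoxia in FIH-KO cells from 5 to 1. The order of the genes per length in WT normoxia changed for 8 of 10 with the longest transcript and for 6 with the canonical transcript, an alternative chosen after seeing the data. With the replicate number as a block there were 4, 6 and 8 genotype calls in normoxia, hypoxia and over both, and 7 hypoxia calls in each genotype, against 3, 5, 7, 7 and 5 without it; Cdc6 in normoxia, Mcm6 in hypoxia, Mcm5 over both, and Mcm4 and Mcm5 with hypoxia in FIH-KO cells were gained. The cause was not tested.

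Of 480 values with 1 library left out, 375 stayed, 52 lost the threshold, 20 gained it and 33 reversed; a lone library was assumed to vary like the other groups, and fewer samples by themselves weaken a test. The genotype calls ranged from 1 to 7 in normoxia, being 1 without replicate 2 of WT normoxia or replicate 1 of FIH-KO normoxia, 5 without replicate 2 of FIH-KO normoxia, 7 and 6 when replicate 1 or 2 of FIH-KO hypoxia was left out, and from 1 (without replicate 1 of WT hypoxia) to 7 in hypoxia. They ranged from 2 to 8 for hypoxia in WT and from 0 to 8 in FIH-KO cells. Every comparison was refitted without each of the 8 libraries, so some of the values that stayed came from leaving out a library that the comparison does not use. The log2 fold changes that reversed were not called in the full fit. For genotype they ranged from -0.11 to 0.16 (Mcm4) and -0.12 to 0.032 (Mcm7) in normoxia, from -0.38 to 0.54 (Mcm4), -0.76 to 0.14 (Mcm5) and -0.27 to 0.36 (Mcm7) in hypoxia, and from -0.16 to 0.28 (Mcm4) and -0.15 to 0.16 (Mcm7) over both. Orc1 with hypoxia in FIH-KO cells ranged from -0.19 to 0.26. The interaction ranged from -0.15 to 0.16 for Mcm2, -0.17 to 0.30 for Mcm3, -0.44 to 0.51 for Mcm4, -0.34 to 0.59 for Mcm5, -0.38 to 0.31 for Mcm6, -0.26 to 0.40 for Mcm7, -0.11 to 0.34 for Mcm10 and -0.36 to 0.12 for Orc1.

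With 2 libraries per group the standard errors of 0.12 to 0.23 for single comparisons set what could be seen, and at 206 or more reads per library counting error was not the main limit for any of the 10 genes.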
